A study of Homo sapiens with 24 samples.

Results

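The 8 genes described here write, read and remove DNA methylation in the human malignant melanoma line A375: the readers UHRF1 and UHRF2, the methyltransferases DNMT1, DNMT3A and DNMT3B, and the TET dioxygenases TET1, TET2 and TET3. They were taken by symbol from a table of 25268 genes, and all 8 were found. Each of the 24 RNA-seq libraries was made from total RNA depleted of ribosomal RNA and was given as FPKM, fragments scaled to transcript length and to the size of the library, in 8 groups of 3. Cells received A771726 at 25 µM together with nucleotides, A771726 at 25 µM alone, nucleotides alone, or DMSO, the solvent control, and each of these was sampled at 24 h and at 48 h. All 8 groups are the same unmodified line, and the sources used here do not give the kind and dose of the nucleotides. The labels do not say whether the 3 libraries of a group came from separate cultures, so a p-value reflects how far these libraries scatter, and that scatter may be technical. FPKM tables hold no read totals, so the depth behind each value is unknown.

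A771726, also called teriflunomide, blocks dihydroorotate dehydrogenase, the mitochondrial enzyme of pyrimidine synthesis. Added nucleotides can supply the product of the blocked pathway by another route if they include pyrimidines, which is not stated for those used here. Methyl groups on CpG sites are copied after each round of replication: UHRF1 binds the half-methylated site left behind the fork and brings in DNMT1, which methylates the daughter strand. DNMT3A and DNMT3B place methylation on sites that carry none, and the TET enzymes oxidise methylcytosine so that it can be lost or replaced. UHRF2 shares the domains of UHRF1 but is not known to replace it in copying methylation.

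Sequence upstream of the start site is shown for the 3 most abundant of the 8 genes, because UHRF1 and UHRF2 differed between A771726 and DMSO at 24 h in opposite directions and DNMT1, the enzyme that UHRF1 recruits, did not pass the test. RefSeq promoter windows on GRCh38.p14 were found for all 8 genes, and the 250 bases before the start site are printed for the most upstream window of each. The windows lie at chr19:4909251-4909500 on the plus strand for UHRF1, chr9:6412949-6413198 on the plus strand for UHRF2 and chr19:10194954-10195203 on the minus strand for DNMT1. Capitals mark matches on either strand to TTTNNCGC, a loose form of the motif bound by E2F factors, which drive S phase genes.
UHRF1: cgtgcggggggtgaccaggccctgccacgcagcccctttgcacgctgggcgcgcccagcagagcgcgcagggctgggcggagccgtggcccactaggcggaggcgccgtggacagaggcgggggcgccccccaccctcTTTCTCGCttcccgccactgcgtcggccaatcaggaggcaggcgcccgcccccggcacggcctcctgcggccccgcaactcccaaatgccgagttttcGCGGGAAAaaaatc
UHRF2: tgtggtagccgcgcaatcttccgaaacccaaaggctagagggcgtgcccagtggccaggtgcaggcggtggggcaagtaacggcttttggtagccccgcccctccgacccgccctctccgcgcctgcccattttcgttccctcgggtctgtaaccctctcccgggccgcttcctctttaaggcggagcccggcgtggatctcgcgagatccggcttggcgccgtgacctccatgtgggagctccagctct
DNMT1: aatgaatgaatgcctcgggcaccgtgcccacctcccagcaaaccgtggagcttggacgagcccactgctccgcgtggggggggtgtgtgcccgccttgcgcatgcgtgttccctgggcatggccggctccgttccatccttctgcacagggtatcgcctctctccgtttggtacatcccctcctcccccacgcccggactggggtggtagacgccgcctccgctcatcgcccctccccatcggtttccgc

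The UHRF1 window held 2 such matches, from -112 to -105 in the direction of the gene and from -14 to -7 on the opposite strand, where the base before the start site is -1. The windows of UHRF2 and DNMT1 held none. Of 35116 promoter windows of this length, 5.92% held at least 1 match, and of the 19 windows of the 8 genes, 2 did, both of UHRF1. The letters CCAAT, the core of the CCAAT box, were in 32.0% of all windows and in 6 of those 19, which belong to UHRF1, DNMT3B, TET1 and TET3. A match is a description of these letters and not a measured site.

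In DMSO at 24 h, UHRF1 stood above 88.0% of the 12042 genes tested, DNMT1 above 81.8% and UHRF2 above 66.9%, by mean FPKM. The other members were low: DNMT3A stood above 13.7%, DNMT3B above 14.3%, TET2 above 16.1% and TET3 above 20.1%. TET1 averaged 0.685 FPKM over the 24 libraries and missed the filter of a mean of at least 1 FPKM, so 7 of the 8 members entered the tests across genes. DNMT3L, the cofactor of the de novo enzymes that carries no catalytic activity, was listed at 0 in all 3 DMSO libraries at each time.

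Several libraries stood apart and touch the results below. The second library of A771726 at 48 h had a median Spearman correlation of 0.178 with the other libraries and 16198 genes at 0, and the first had a correlation of 0.747, against 0.905 to 0.970 in the other 22. The group was therefore tested in fits of its own. A further 3 libraries, each from a different group, were high together in DNMT1, TET1, TET2 and TET3: the first library of A771726 at 24 h, the second of A771726 with nucleotides at 24 h and the third of nucleotides at 48 h. Some results are given with and without these 3, and the others only with them, where their groups entered the fit. The labelled line was checked by its markers: in DMSO at 24 h, 3 of 7 markers of pigment cells averaged at least 1 FPKM (SOX10, S100B and MITF), and the other 4 were below it, with the pigment enzyme gene TYR listed at 0. In bulk RNA, fewer cells of a type and less RNA per cell cannot be told apart.

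UHRF1 was at 22.4, 16.1 and 21.1 FPKM in the 3 libraries of A771726 at 24 h, against 45.7, 37.5 and 47.1 FPKM in DMSO. With nucleotides added to A771726, it was at 43.2, 43.4 and 43.7 FPKM, and nucleotides alone gave 44.1, 39.2 and 46.4 FPKM. All 3 A771726 libraries lay below every other library at 24 h, and the other 3 groups overlapped. Of all tested genes, 15.3% had all 3 A771726 libraries below all 3 of DMSO and 19.9% above, and 8.16% had all 3 libraries of A771726 with nucleotides above all 3 of A771726 and 15.0% below. UHRF1 fell with A771726 to 19.9 ± 3.32 FPKM, against 43.5 ± 5.17 FPKM in DMSO (SD, n = 3 each), a log2 difference of -1.09 ± 0.13 (SE) on the log2(FPKM + 1) scale used for all tests (limma, adjusted p = 1.36e-05). Against A771726 alone, UHRF1 rose with A771726 plus nucleotides by 1.10 ± 0.13 (limma, adjusted p = 1.48e-05). These comparisons share the A771726 libraries, and those with DMSO share the DMSO libraries, so they are not independent of each other. Between A771726 with nucleotides and DMSO, the difference was 0.01, with a 95% confidence interval from -0.27 to 0.28 (limma, adjusted p = 0.995).

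UHRF2 moved the other way. It was at 17.3, 19.0 and 15.9 FPKM in the A771726 libraries at 24 h, against 12.5, 14.1 and 11.8 FPKM in DMSO. A771726 with nucleotides gave 12.7, 13.0 and 10.7 FPKM, and nucleotides alone 12.4, 14.2 and 12.0 FPKM. The A771726 libraries lay above all 9 others at this time, with a gap smaller than that of UHRF1. UHRF2 rose with A771726 to 17.4 ± 1.55 FPKM, against 12.8 ± 1.19 FPKM in DMSO (SD, n = 3 each), by 0.41 ± 0.10 on the log2 scale (limma, adjusted p = 0.00529). Against A771726 alone it fell by 0.49 with nucleotides present (limma, adjusted p = 0.00169). The UHRF2 calls rest on a spread estimated over 7 groups: with only the groups compared in the fit, the adjusted p was 0.0776 against DMSO and 0.105 against A771726, and with all 24 libraries in the fit it was 1 in both.

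**Figure D1:**
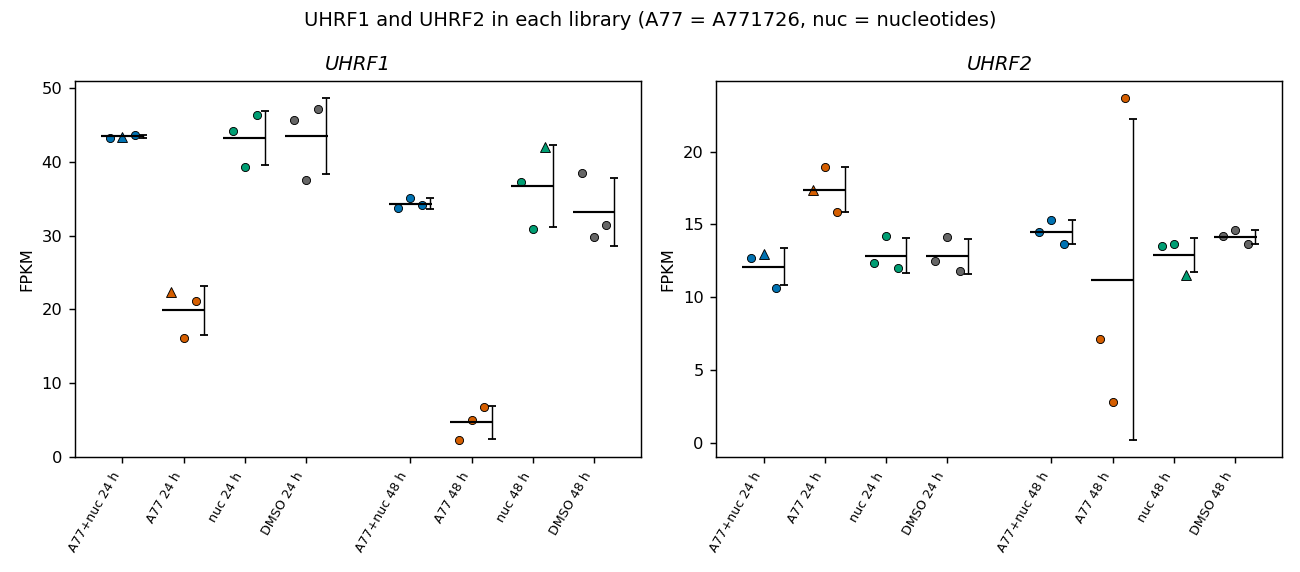
FPKM of UHRF1 and UHRF2 (vertical axes, from 0) in each of the 24 libraries, by group (horizontal axis), with the mean as a line and the SD as a bar (n = 3), and with triangles for the 3 libraries that were high together in other members. At 24 h the A771726 libraries sit between 16.1 and 22.4 FPKM for UHRF1, below all others, and between 15.9 and 19.0 FPKM for UHRF2, above all others.

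Whether the effect of A771726 differed with nucleotides was tested itself. The effect of A771726 in the presence of nucleotides minus its effect in their absence was 1.10 ± 0.19 for UHRF1 (limma, adjusted p = 0.00119) and -0.50 ± 0.14 for UHRF2 (limma, adjusted p = 0.0351). In this test 7.61% of all genes were called. The UHRF2 value lost its call when any of 6 single libraries at 24 h was left out, with an adjusted p of at most 0.0954 and a difference between -0.41 and -0.52. With all 24 libraries in a single fit, the aberrant ones of A771726 at 48 h included, neither gene was called here (limma, adjusted p = 0.733 for UHRF1 and 1 for UHRF2).

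Read against all genes, 2 of the 7 tested members were called between A771726 and DMSO at 24 h, 1 higher and 1 lower, where 24.0% of all genes were called, 13.1% higher and 10.8% lower. The same 2 were called between A771726 with nucleotides and A771726 alone, where 18.0% of genes were called, 6.06% higher and 12.0% lower. The share among the members is close to that among all genes. No member was called between A771726 with nucleotides and DMSO (3 of 12042 genes, 0.0249%) or between nucleotides and DMSO (1 gene, 0.00830%) at 24 h, and none had an unadjusted limma p under 0.05 in either. Scaling every library to the same summed FPKM moved the median of all genes between A771726 and DMSO from 0.03 to 0.46 on the log2 scale, and relative to that median UHRF1 was at -1.08 and UHRF2 at 0.44, the same directions as without it.

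**Figure D2:**
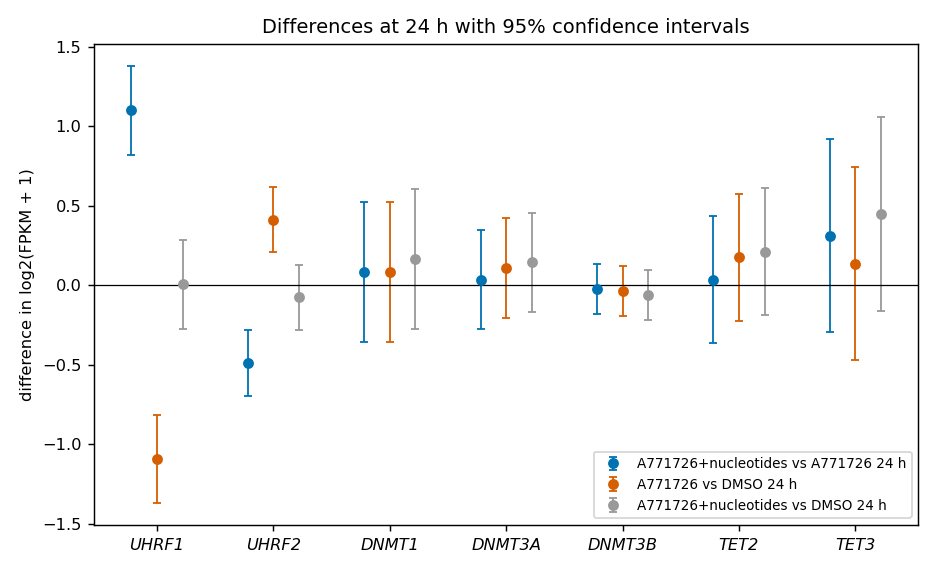
Difference in log2(FPKM + 1) (vertical axis) for the 7 tested members (horizontal axis) at 24 h, with 95% confidence intervals from limma, in 3 comparisons (colours, named in the legend). The intervals of UHRF1 and UHRF2 leave out 0 in A771726 with nucleotides against A771726 and in A771726 against DMSO, and those of the other members include it in all 3.

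The balance of the readers within each library was read as a ratio, which needs no scaling between libraries. A ratio does not remove a library's trend with GC content, and the longest annotated transcripts have 54.6% GC for UHRF1 and 44.2% for UHRF2. The second library had the lowest UHRF1 to UHRF2 ratio in every group outside A771726 at 48 h. The part of GC content in the ratio was not tested. The ratio of UHRF1 to UHRF2 FPKM was 1.29, 0.852 and 1.33 in A771726 at 24 h, against 3.66, 2.66 and 3.99 in DMSO. It was 3.41, 3.35 and 4.10 in A771726 with nucleotides and 3.56, 2.76 and 3.87 in nucleotides alone. The 3 A771726 libraries thus held about equal levels of both genes per length, and every other library at 24 h held more UHRF1. On the log2 scale the ratio was lower by a mean difference of -1.57 in A771726 than in DMSO, and it stayed between -1.75 and -1.37 when any 1 of the 6 libraries was left out. The ratio of UHRF1 to DNMT1 was 0.552, 0.739 and 0.819 in A771726, against 1.76, 1.41 and 1.70 in DMSO, again with no overlap.

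**Figure D3:**
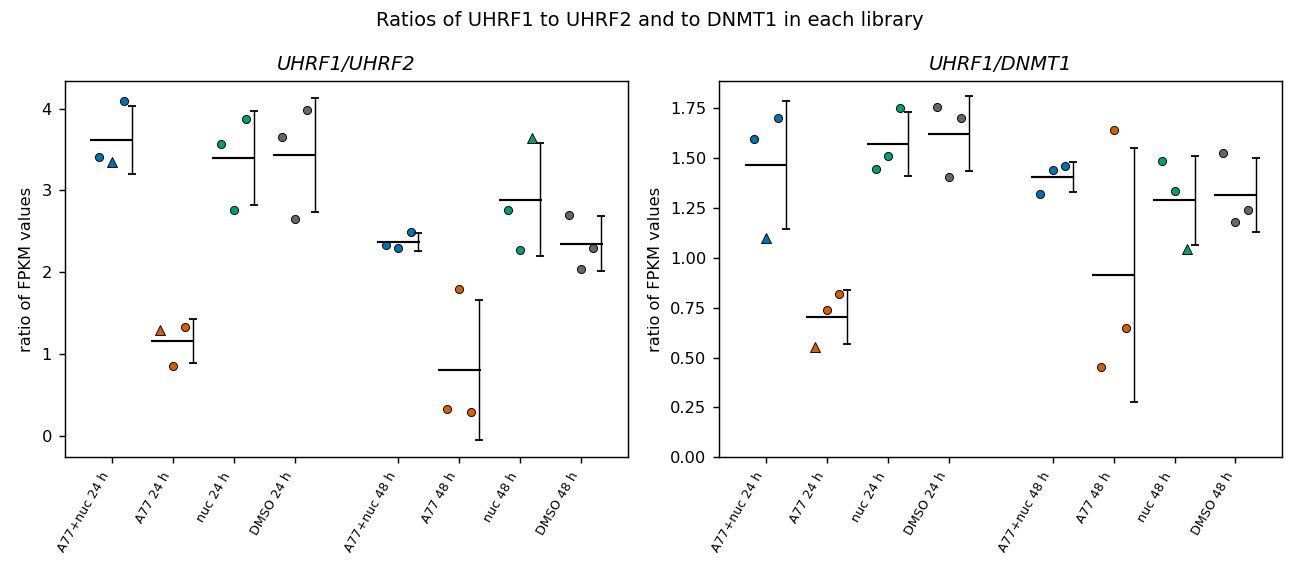
Ratio of FPKM values of UHRF1 to UHRF2 and of UHRF1 to DNMT1 (vertical axes) in each library by group (horizontal axis), with the mean as a line and the SD as a bar (n = 3) and triangles as in the plot of UHRF levels. At 24 h the UHRF1 to UHRF2 ratio lies between 0.852 and 1.33 in A771726 and at 2.66 or above in every other library.

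DNMT1, the maintenance methyltransferase, did not follow UHRF1 at 24 h. It was at 40.6, 21.8 and 25.8 FPKM in A771726, against 26.0, 26.7 and 27.7 FPKM in DMSO. A771726 with nucleotides gave 27.1, 39.4 and 25.6 FPKM, and nucleotides alone 30.5, 26.0 and 26.5 FPKM. The groups overlapped, and 1 high library in each A771726 group set the spread. The difference between A771726 and DMSO was 0.08, with a 95% confidence interval from -0.36 to 0.52 (limma, adjusted p = 0.807). Without the 3 libraries that were high together it was -0.17 (limma, adjusted p = 0.145), so the sign turned and no call was made either way. In the GENCODE annotation DNMT1 shares exonic bases with S1PR2 on the same strand, so reads could have been split between them.

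The de novo enzymes were low and also made no call at 24 h. DNMT3A was at 2.23, 1.26 and 1.48 FPKM in A771726, against 1.56, 1.33 and 1.43 FPKM in DMSO, a difference of 0.11 with a 95% confidence interval from -0.21 to 0.42 (limma, adjusted p = 0.627). DNMT3B was at 1.35, 1.32 and 1.58 FPKM in A771726, against 1.72, 1.25 and 1.48 FPKM in DMSO, a difference of -0.04 with an interval from -0.19 to 0.12 (limma, adjusted p = 0.753). Both pairs of groups overlapped. DNMT3B had the narrowest interval of the 7 members here. Its value rests on the scaling: with summed FPKM made equal it was 0.31 (limma, adjusted p = 0.0135), which is -0.15 relative to the median of all genes under that scaling.

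TET1 was the TET gene whose libraries did not overlap between A771726 and DMSO at 24 h. It was at 1.79, 0.946 and 0.867 FPKM in A771726 at 24 h, against 0.462, 0.515 and 0.447 FPKM in DMSO. TET1 stood at 0.544, 1.04 and 0.385 FPKM in A771726 with nucleotides and at 0.566, 0.602 and 0.403 FPKM in nucleotides alone. The A771726 libraries lay above those of DMSO and of nucleotides, and overlapped those of A771726 with nucleotides through the second library of that group. With no filter on low values, where 18.9% of genes were called, TET1 rose with A771726 against DMSO by 0.55 ± 0.16 (limma, adjusted p = 0.0221), and without the 3 high libraries by 0.37 ± 0.09 (limma, adjusted p = 0.0082). The difference between A771726 with nucleotides and A771726 alone was -0.40 (limma, adjusted p = 0.107) with those libraries and -0.38 (limma, adjusted p = 0.0142) without them. The 3 libraries were named as high in members that include TET1, and the omission was chosen after seeing the data. It takes out the library through which these groups overlapped, so the values without the 3 are no independent test of TET1. Adding 1 to such low FPKM values makes these log2 differences understate the change, and levels this low carry an unknown counting error.

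TET3 was at 4.56, 1.28 and 1.91 FPKM in A771726 at 24 h, against 2.04, 1.90 and 2.17 FPKM in DMSO. A771726 with nucleotides gave 2.68, 4.60 and 2.43 FPKM. The A771726 group thus held both the lowest TET3 value at 24 h and one of the highest. Against DMSO, TET3 differed by 0.14 (interval -0.47 to 0.74) with all libraries and by -0.23 without the 3 high ones (limma, adjusted p = 0.766 and 0.183). Between A771726 with nucleotides and A771726 alone it differed by 0.31 (limma, adjusted p = 0.535), and without the 3 high libraries by 0.46 (limma, adjusted p = 0.025), which made it a called member beside UHRF1 and UHRF2. That call compares only 2.68 and 2.43 FPKM with 1.28 and 1.91 FPKM, and the omission was chosen after seeing the data. TET2 was at 2.64, 1.76 and 1.63 FPKM in A771726, against 1.56, 1.74 and 1.61 FPKM in DMSO, a difference of 0.18 (limma, adjusted p = 0.525) with overlapping groups.

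**Figure D4:**
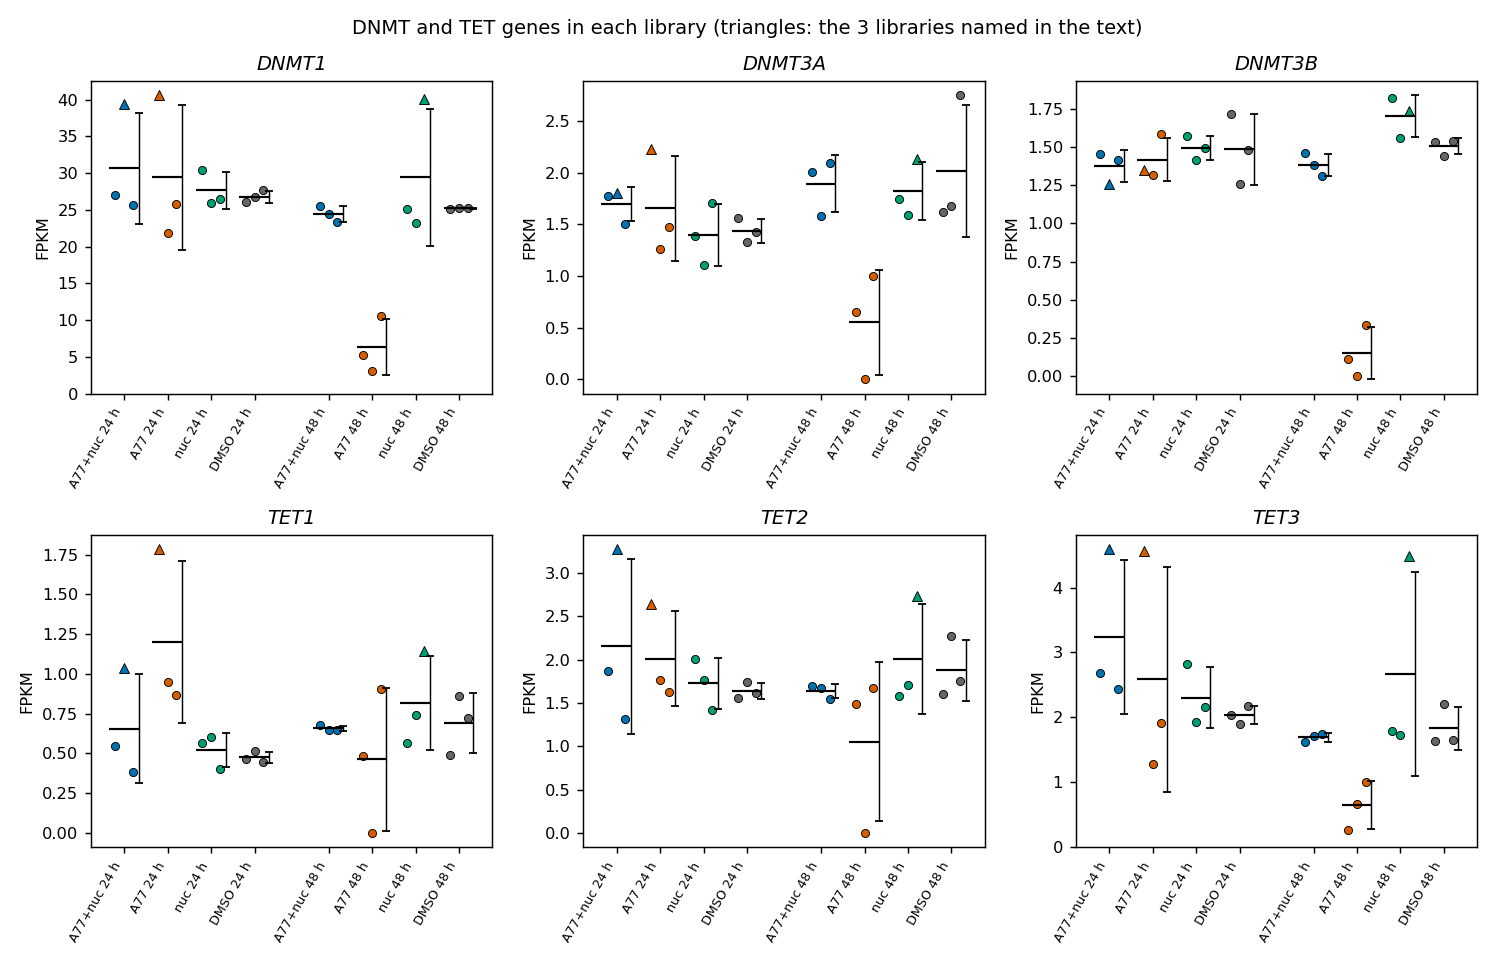
FPKM of DNMT1, DNMT3A, DNMT3B, TET1, TET2 and TET3 (vertical axes) in each of the 24 libraries by group (horizontal axis), with the mean as a line and the SD as a bar (n = 3). Triangles mark 3 libraries of 3 different groups, which lie between 39.4 and 40.6 FPKM for DNMT1 and between 4.48 and 4.60 FPKM for TET3, above all the others.

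The 3 libraries marked in the plot of DNMT and TET levels reached close levels of DNMT1 and of TET3, above the other 18 libraries outside A771726 at 48 h. DNMT1 was at 40.6, 39.4 and 40.1 FPKM in the first library of A771726 at 24 h, the second of A771726 with nucleotides at 24 h and the third of nucleotides at 48 h, and between 21.8 and 30.5 FPKM in the other 18 libraries outside A771726 at 48 h. TET3 was at 4.56, 4.60 and 4.48 FPKM in those 3, and between 1.28 and 2.83 FPKM in the 18. TET2 lay between 2.64 and 3.28 FPKM in the 3 and between 1.32 and 2.27 FPKM in the 18. Relative to the medians of their groups, the 3 libraries deviated in DNMT1 by a mean of 0.61 on the log2 scale, more than 92.1% of tested genes, in TET3 by 0.84 (95.7%) and in TET2 by 0.48 (88.9%). The same mean was 0.08 for UHRF1 (65.1%) and -0.06 for UHRF2 (41.4%). DNMT1, TET2 and TET3 are among the genes in which these 3 libraries were named as high, so their ranks are a description and no test. Deviations of the 3 libraries across the 12042 tested genes correlated with Pearson's r of 0.387, 0.557 and 0.326 in the 3 pairs, where genes are not independent replicates. The same deviations followed transcript length, with Spearman's rho between 0.299 and 0.476 across genes, where the other 18 libraries lay between -0.435 and 0.384. The longest annotated transcripts of TET3, TET2 and DNMT1 have 11388, 10166 and 5408 bases, against 4309 for UHRF1 and 3723 for UHRF2. DNMT3A, with 9501 bases, deviated by 0.20 (76.0%), less than the shorter DNMT1, and DNMT3B, with 4336 bases, by -0.03 (45.85%). The part of transcript length in the DNMT1 and TET values was not tested.

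**Figure D5:**
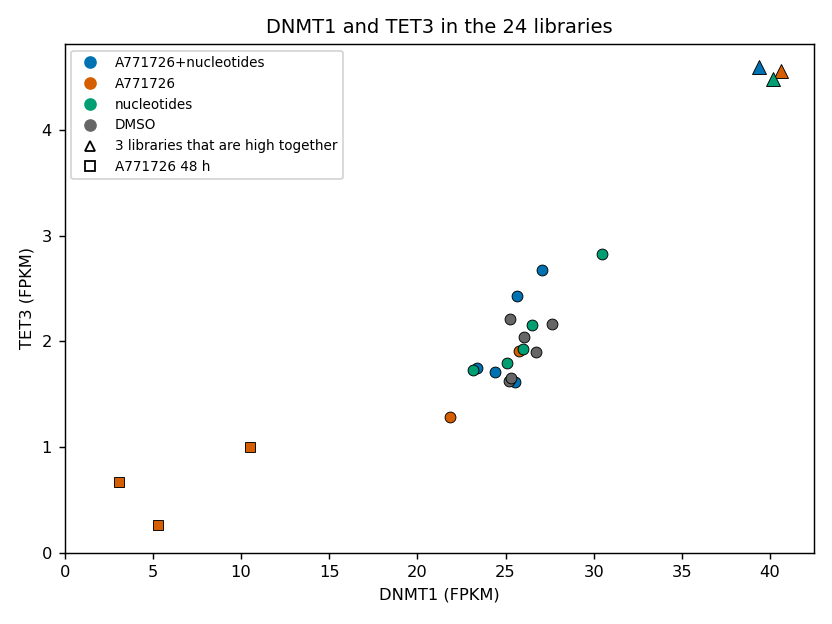
DNMT1 (horizontal axis) and TET3 (vertical axis) in FPKM in each of the 24 libraries, with colours for the treatment, triangles for the 3 libraries that are high together and squares for A771726 at 48 h. The triangles stand at 39.4 to 40.6 FPKM of DNMT1 and the squares at 3.10 to 10.5 FPKM, apart from the other 18.

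How the members vary together across libraries was described over the 21 libraries outside A771726 at 48 h. These share one processing and carry the treatment differences above, and also trends with GC content that follow the library number. UHRF1 and UHRF2 had a Pearson's r of -0.886, and -0.874 over the 18 libraries without the 3 high ones. TET1 had an r of -0.604 with UHRF1 over 21 libraries and -0.898 over 18. DNMT1 and TET3 had an r of 0.960 over 21 libraries, and 0.799 over 18, so part of that value lies in the 3 libraries. DNMT1 and UHRF1 had an r of 0.194 over 21 and 0.665 over 18. Among tested genes that averaged 5 FPKM or more, those most like UHRF1 over the 21 libraries were SLC1A5 (0.973), NF2 (0.966) and KCTD15 (0.947), and those most like UHRF2 were PLS1 (0.962), ACBD3 (0.961) and FBXL5 (0.955). Those like DNMT1 included FOXM1 (0.981) and PPRC1 (0.978), and those like TET3 PPRC1 (0.984) and PDPR (0.972). Over the 18 libraries the value for DNMT1 was 0.867 with FOXM1 and 0.892 with PPRC1.

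At 48 h, UHRF1 was at 2.38, 5.09 and 6.81 FPKM in A771726, against 38.4, 29.8 and 31.4 FPKM in DMSO. A771726 with nucleotides gave 33.7, 35.1 and 34.1 FPKM, and nucleotides alone 37.2, 30.9 and 42.0 FPKM. The A771726 libraries were below all others without overlap, the third library included, which had a correlation of 0.910 with the other libraries. DNMT1 was at 5.29, 3.10 and 10.5 FPKM in A771726, against 25.2, 25.2 and 25.3 FPKM in DMSO, and A771726 with nucleotides gave 25.5, 24.4 and 23.4 FPKM. DNMT3B was listed at 0.113, 0 and 0.335 FPKM in A771726, against 1.54, 1.44 and 1.54 FPKM in DMSO. So at this time both DNMT1 and DNMT3B lay below DMSO in every A771726 library, as 43.0% of all genes did. Neither did so at 24 h, where 15.3% of all genes did.

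No member passed the adjusted limma threshold between A771726 and DMSO at 48 h, where 9 of 12042 genes did (0.0747%), and 3 of the 7 had an unadjusted p under 0.05 (UHRF1, DNMT1 and DNMT3B). UHRF1 differed by -2.65 ± 0.45 (limma, unadjusted p = 0.00102, adjusted p = 0.203) and DNMT1 by -1.98 ± 0.48 (limma, unadjusted p = 0.00619, adjusted p = 0.203). DNMT3B was at -1.14, DNMT3A at -0.998, TET3 at -0.80, UHRF2 at -0.72 and TET2 at -0.60, and the median of all genes was itself at -0.87. With libraries lying below DMSO in all 3 counted, 5 of the 7 members did so (UHRF1, DNMT1, DNMT3A, DNMT3B and TET3), where 43.0% of all genes did. With the third A771726 library taken alone, UHRF1 differed from DMSO by -2.12, DNMT1 by -1.19 and DNMT3B by -0.91. UHRF2 turned its sign in that fit, at 0.70. A single library gives no spread of its own, so these are sizes of difference without a test.

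UHRF2 was at 7.13, 2.84 and 23.7 FPKM in the A771726 libraries at 48 h, against 14.2, 14.6 and 13.7 FPKM in DMSO. The third of these is the highest UHRF2 value of the 24 libraries, and the first and second are the lowest. The ratio of UHRF1 to UHRF2 was 0.334, 1.79 and 0.288 in A771726, against 2.70, 2.04 and 2.30 in DMSO and 2.33, 2.29 and 2.50 in A771726 with nucleotides. It was below every other library at 48 h in all 3 A771726 libraries, also where UHRF2 itself was low.

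A771726 with nucleotides against A771726 alone at 48 h gave UHRF1 a difference of 2.70 ± 0.42 (limma, unadjusted p = 0.000741, adjusted p = 0.183) and DNMT1 one of 1.93 ± 0.46 (limma, adjusted p = 0.183), and again no member passed (8 genes, 0.0664%). Lying above all 3 A771726 libraries in all 3 libraries with nucleotides was found for the same 5 members, and for 46.1% of all genes. Between A771726 with nucleotides and DMSO at 48 h, where 7 genes were called (0.0581%), UHRF1 differed by 0.05 with a 95% confidence interval from -0.23 to 0.33. DNMT1 differed there by -0.05 with an interval from -0.48 to 0.40. Nucleotides alone against DMSO called 0 genes (0%) at this time with limma, also with a robust trend, and 141 genes had an unadjusted p under 0.05, none of them a member. UHRF1 differed there by 0.14 with an interval from -0.14 to 0.42. No member was called in either comparison with DMSO, and the intervals leave room for differences of their size.

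Time in DMSO alone was compared in the same genes. UHRF1 averaged 33.2 ± 4.58 FPKM at 48 h and 43.5 ± 5.17 FPKM at 24 h (SD, n = 3 each), a difference of -0.38 ± 0.13 (limma, unadjusted p = 0.0109, adjusted p = 0.179), and the libraries overlapped. By library number it was at 38.4, 29.8 and 31.4 FPKM at 48 h, against 45.7, 37.5 and 47.1 FPKM at 24 h, so it was lower at 48 h for each of the 3 numbers. Deviations of same-numbered libraries correlated between these 2 groups (0.125, 0.300 and 0.134). The labels do not say that a number marks a pair, and trends with GC content also follow the number. With the number as a block UHRF1 was called (limma, adjusted p = 0.031), where 944 of 12042 genes were (7.84%), against 246 without the block. DNMT1 was at 25.2, 25.2 and 25.3 FPKM at 48 h, all below the 26.0, 26.7 and 27.7 FPKM at 24 h, a difference of -0.08 (limma, adjusted p = 0.918), as 11.2% of all genes were. Without the block none of the 7 members was called with limma, where 2.04% of genes were, and UHRF1 was the 1 member with an unadjusted p under 0.05.

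The genes that work with the members were read from lists chosen with earlier results of these data known. Of 17 tested partners of maintenance methylation, 6 fell and 1 rose between A771726 and DMSO at 24 h, with a median log2 difference of -0.20 where the median of all genes was 0.03. Over all tested genes, 10.8% fell and 13.1% rose in this comparison, the shares against which this count and those of the next lists are to be read. CDCA7, which activates the remodeller HELLS and is needed for CpG methylation, fell to 2.66 FPKM in A771726, against 6.75 FPKM in DMSO (-1.09 ± 0.13, limma, adjusted p = 1.29e-05), and its relative CDCA7L fell to 16.9 FPKM, against 27.2 FPKM (-0.65, limma, adjusted p = 7.15e-06). TRIM28, a corepressor at silenced repeats, fell by 0.65 (limma, adjusted p = 0.0414). CBX5, the heterochromatin protein HP1 alpha, rose to 23.7 FPKM in A771726, against 9.61 FPKM in DMSO (1.13 ± 0.30, limma, adjusted p = 0.0106). PCNA, the sliding clamp at the fork, was at 159 FPKM in A771726 and 171 FPKM in DMSO (-0.14, limma, adjusted p = 0.573) and CBX3 at 77.7 and 85.0 FPKM in the same groups (-0.21, limma, adjusted p = 0.643). The directions of this list depend on scaling: with summed FPKM made equal, 6 of the 17 were called higher and 1 lower, CDCA7 at -0.74 (limma, adjusted p = 0.00377), where the median of all genes was 0.46.

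Of 9 tested methyl-CpG binding readers, 2 rose and 1 fell with A771726 at 24 h (median 0.20), where 13.1% of all genes rose and 10.8% fell. With summed FPKM made equal, 6 of the 9 were called higher and none lower, with a median of 0.68 where that of all genes was 0.46. ZBTB38, a zinc finger protein that binds methylated CpG, rose to 50.1 FPKM in A771726, against 18.4 FPKM in DMSO (1.40 ± 0.15, limma, adjusted p = 3.47e-06). It fell again by 1.40 with nucleotides added, against A771726 alone (limma, adjusted p = 3.86e-06), to 18.6 FPKM. ZBTB4, of the same family, rose to 3.34 FPKM, against 1.83 FPKM (0.61, limma, adjusted p = 0.00736), and MBD2, a reader in the NuRD repressor complex, was lower by -0.44 (limma, adjusted p = 0.00123), though at -0.01 with summed FPKM made equal. MBD3, at 34.9 FPKM in A771726 and 40.0 FPKM in DMSO (limma, adjusted p = 0.664), and MBD4, at 10.9 and 9.43 FPKM in the same groups (limma, adjusted p = 0.2), did not pass.

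Of 17 tested genes of active demethylation, base repair and TET partners, 1 rose and 1 fell (median 0.13), where 13.1% of all genes rose and 10.8% fell. With summed FPKM made equal, 14 of the 17 were called higher and none lower, with a median of 0.61 where that of all genes was 0.46. GADD45A, a stress-induced gene that has been linked to active demethylation, rose to 22.8 FPKM in A771726, against 10.8 FPKM in DMSO (1.00 ± 0.09, limma, adjusted p = 5.99e-07), and APEX1, the abasic site endonuclease, fell to 27.4 FPKM, against 40.2 FPKM (limma, adjusted p = 0.0248). IDH1, which makes the 2-oxoglutarate that TET enzymes use, was at 41.0 FPKM in A771726 and 35.4 FPKM in DMSO (limma, adjusted p = 0.477). Without the 3 high libraries, 4 of these 17 were called higher and none lower: GADD45A, IDH1 (0.40, limma, adjusted p = 0.00153), IDH2 and the uracil glycosylase gene SMUG1; IDH2 and SMUG1 were chosen for naming after their values were seen.

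Of 16 tested genes that supply methyl donors through folate and methionine, 3 fell and 1 rose (median -0.07), where 10.8% of all genes fell and 13.1% rose. MTHFD2, the mitochondrial folate enzyme, fell to 54.6 FPKM in A771726, against 135 FPKM in DMSO (-1.31 ± 0.18, limma, adjusted p = 5.25e-05), and SHMT2, which feeds it, fell to 59.0 FPKM, against 93.2 FPKM (limma, adjusted p = 0.0338). MTRR, which reactivates methionine synthase, was lower by -0.43 (limma, adjusted p = 0.00266). Without the 3 high libraries SHMT2 was at -0.46 (limma, adjusted p = 0.0752). With summed FPKM made equal, 7 of the 16 were called higher and 1 lower, MTHFD2 (-0.82, limma, adjusted p = 0.0016), where the median of all genes was 0.46.

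UHRF1 is transcribed in dividing cells around S phase, so the 6 subunits of the replicative helicase, MCM2 to MCM7, are given beside it as a reading of replication. All 6 fell with A771726 at 24 h, where 10.8% of all genes fell. Their log2 differences lay between -1.78 for MCM5 and -0.42 for MCM4, with a median of -1.03, and UHRF1 at -1.09 lay within that range. All 6 rose with A771726 plus nucleotides against A771726 alone, where 6.06% of all genes rose. Their median was 0.85, and UHRF1 was at 1.10. Without the 3 high libraries all 6 were called in both comparisons, with medians of -0.85 and 0.86 where those of all genes were 0.02 and -0.04. With summed FPKM made equal, MCM4 was at 0.07 against DMSO (limma, adjusted p = 0.691) and the other 5 stayed lower. DNMT1, at 0.08 and 0.08 in the same comparisons, and PCNA, at -0.14 and -0.02, lay outside the range of the 6. The part of replication or cell cycle phase in the UHRF1 values was not tested. Markers of other cells moved too: the summed level of 5 leukocyte markers was 23.9 to 37.1 FPKM in A771726 at 24 h, against 7.44 to 8.56 FPKM in DMSO, through CD68 and LYZ, and 6 markers of fibroblasts and endothelium summed to 3.97 to 4.26 FPKM, against 1.55 to 1.69 FPKM. Keratinocyte markers overlapped between these groups. Markers of the line itself also moved: 7 of pigment cells summed to 90.1 to 105 FPKM in A771726, against 57.1 to 67.3 FPKM in DMSO. The 3 mesenchymal markers summed to 349 to 472 FPKM, against 699 to 779 FPKM. The part of any of these markers in the result was not tested.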

How the data were processed

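Libraries were made from ribosome-depleted total RNA of A375 cells. Per the submitters' processing notes, reads were handled with cutadapt, TopHat2 2.0.11 and Cufflinks 2.2.1 on hg19, and the authors deposited 1 FPKM value per gene and library; the sources used here do not give annotation and strand setting. Genes averaging 1 FPKM or more in the 24 libraries were kept (12042 of 25268). Values were tested as log2(FPKM + 1), a scale that understates changes of low genes, with limma 3.58.1 in R 4.3.3 and Benjamini-Hochberg adjustment within each comparison over all genes, calling at 0.05. A single fit over 21 libraries gave 8 comparisons; the 2 with A771726 at 48 h used their own 6 libraries. The test was checked on simulated data. No 2 libraries held identical values (highest Pearson's r 0.969). Members of the gene set and of all lists, and the tests, were chosen with earlier results of these data known. Members were named whatever their values; from each list up to 4 called genes by size of change and up to 2 uncalled ones by level were named, except a few genes not reported here. Same-numbered libraries were checked for pairing by the correlation of their deviations from the group means: all 3 were over 0.1 for DMSO at 48 h and 24 h (0.125, 0.300 and 0.134) and not for the other comparisons made here. Outside A771726 at 48 h, deviations from the group medians followed GC content with the number (Spearman's rho -0.822 to -0.447 in libraries numbered 2, 0.344 to 0.739 in those numbered 3). Alternatives varied the pseudocount, filter, scaling, fit and libraries. Leaving out the 3 libraries that were high together and removing trends with GC content and transcript length (GENCODE, 93.5% of tested genes matched) were added after seeing the data. RefSeq promoter windows (GRCh38.p14) gave the sequences only.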

Additional observations from a re-analysis of the deposited data

Results flagged for a closer look

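Both flagged results concern the effect of A771726 at 24 h, which differed with and without nucleotides by the test of that difference. For UHRF1 the effect in the presence of nucleotides minus that in their absence was 1.104 on the log2 scale (limma, adjusted p = 0.00119). For UHRF2 it was -0.4952 (limma, adjusted p = 0.0351), with single-library omissions giving adjusted p of up to 0.0954. No other member that passed the filter gave such a difference at the threshold in this test. With no filter on low values, TET1 was at -0.45 (limma, adjusted p = 0.329). Without the 3 high libraries it was at -0.43 (limma, adjusted p = 0.0445), where 9.79% of genes were called. Those libraries were named as high in members that include TET1, after seeing the data, so this value is no independent test of TET1.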

How the results depend on the processing

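Of 1270 recomputed member differences, 1220 kept their side of the threshold with no called sign change, though 115 of these, uncalled throughout, changed sign; 13 lost a call, 34 gained one and 3 reversed. UHRF1 was called between A771726 and DMSO, and between A771726 with nucleotides and A771726, at 24 h under every alternative run. The 2 members called in A771726 against DMSO at 24 h became 4 with summed FPKM made equal, 1 with all 24 libraries and 1 with only the groups compared; the 2 called in A771726 with nucleotides against A771726 became 1 with all 24 libraries and 1 with only the groups compared. For the difference of effects the 2 became 0 with all 24 libraries, 1 with only the groups compared and 1 to 2 when single libraries were left out. At 48 h, 0 called in A771726 against DMSO became 5 with all 24 libraries and 0 to 3 with single libraries left out (3 without the third A771726 library). For A771726 with nucleotides against A771726, 0 became 5 and 0 to 6 (6 without that library). Reversed were DNMT3B in A771726 against DMSO at 24 h with summed FPKM made equal (0.3089) and UHRF2 at 48 h with the third library alone (0.7031 against DMSO, -0.6734 for A771726 with nucleotides against A771726). The cause was not tested.

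Over all groups, 28 of 84 correlations between same-numbered libraries were over 0.1 (range -0.312 to 0.354), and 13 of 21 libraries correlated best with their own number. With a replicate block, 1 member (UHRF1, adjusted p = 0.031) was called between DMSO at 48 h and 24 h, against 0 without it. It was 1 with only the DMSO libraries and the block (UHRF1, adjusted p = 0.0468), 1 with GC and length trends removed (UHRF1, adjusted p = 0.0121) and 2 with both that removal and the block (UHRF1, adjusted p = 0.00918, and UHRF2, 0.14, adjusted p = 0.0488). The block changed no other call of a member; it moved all calls in A771726 with nucleotides against A771726 at 24 h from 2171 to 3404, and in the difference of effects from 916 to 1861.

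Over all genes, the 2888 calls of A771726 against DMSO at 24 h became 114 with all 24 libraries, 1030 with only the groups compared, 6434 with summed FPKM made equal, 1746 with a minimum mean of 5 FPKM and 4396 with GC and length trends removed. The share of lower calls, 45.2%, was 4.07% with summed FPKM made equal, 61.6% with the higher minimum and 33.8% with no filter. The 2171 calls of A771726 with nucleotides against A771726 became 72, 405, 3410, 1185 and 3617, with 66.4% lower, 91.1% with summed FPKM made equal, 55.1% with the higher minimum and 52.1% with quantile normalization. The 9 calls of A771726 against DMSO at 48 h became 6915 with all 24 libraries. Depth is unknown, which limits DNMT3A, DNMT3B and the TET genes most.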

Other observations

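Germline and cancer-testis genes, whose promoters are methylated in most somatic cells, were read as a further group. Of 36 listed, 35 were in the table and 12 passed the filter. The others in the table averaged under 1 FPKM, so genes near silence were left out of the counts below. These counts therefore cannot read promoter methylation, which was not measured. Between A771726 and DMSO at 24 h, 1 of the 12 rose and 3 fell, where 13.1% of all genes rose and 10.8% fell, with a median log2 difference of -0.25 where the median of all genes was 0.03. MAGEA10 rose to 9.78 FPKM in A771726, against 4.77 FPKM in DMSO (0.85 ± 0.22, limma, adjusted p = 0.00897). MAGEA4 fell to 282 FPKM, against 435 FPKM (-0.65 ± 0.19, limma, adjusted p = 0.0187). MAGEA3 and MAGEA6, near-identical copies between which reads cannot be assigned with certainty, fell to 40.2 and 31.3 FPKM in A771726, against 63.6 and 51.2 FPKM in DMSO (limma, adjusted p = 0.0355 and 0.0159). PAGE5, the highest of those that did not pass, was at 182 FPKM in A771726 and 222 FPKM in DMSO (limma, adjusted p = 0.302). With summed FPKM made equal, 2 of the 12 were called higher and none lower, where the median of all genes was 0.46. Against A771726 alone, MAGEA10 fell by 0.73 with nucleotides added (limma, adjusted p = 0.027).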
